A study of Homo sapiens with 4 samples.

Results

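The 34 genes of the constitutive proteasome described here were taken as a fixed list of symbols, matched to the Ensembl identifiers of the count tables. They encode the 14 subunits of the core particle (7 in the alpha ring, PSMA1 to PSMA7, and 7 in the beta ring, PSMB1 to PSMB7), 17 subunits of the cap (6 ATPases, 3 other base subunits and 8 lid subunits), the activators PSME3 and PSME4, and the assembly factor POMP. All 34 were listed in every table, among 32991 genes listed in all and 34241 listed in any, and all 34 had a mean of at least 10 CPM (UMIs per 1000000 UMIs of a library) over the libraries, as did 6504 genes in total. The rule names the genes by symbol, and it was chosen with earlier results of these data known.

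The cells were A375, a BRAF-mutant human melanoma line, profiled by droplet single-cell RNA sequencing in 4 cultures with 1 library each. S was the untreated, sensitive culture. RV was made resistant to the BRAF inhibitor vemurafenib, RVC to vemurafenib with the MEK inhibitor cobimetinib, and RVT to vemurafenib with the MEK inhibitor trametinib, each over 10 to 14 days at drug levels under the IC50, and the drugs were taken away 24 hours before the cells were loaded. All cultures came from 1 cell line with 1 library each, so drug, culture and library cannot be told apart, and with 1 library per condition there is no replicate check and no test between conditions. Intervals below are exact 95% Poisson (levels) or binomial (ratios of levels) intervals, and they cover counting error only.

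The proteasome is the protease complex that degrades ubiquitin-tagged proteins in the cytosol and nucleus. Its barrel-shaped core is built of outer alpha rings, which gate the entry channel, and inner beta rings, which hold the proteolytic sites. A cap binds the ends of the barrel, where the lid and the other base subunits recognise and strip ubiquitin chains and the ATPase ring unfolds the substrate and feeds it into the core. The subunits are needed in fixed proportions, and many of their genes are known to be induced together by the transcription factor NFE2L1 when proteasome activity falls short.

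After filtering, 6334 (S), 4177 (RV), 7623 (RVC) and 8445 (RVT) cells were left, with 25407041 (RVT) to 58611860 (S) UMIs per library. In depth and in the genes listed, the libraries fell into 2 pairs. S and RV had medians of 8808 and 11553 UMIs per cell, and RVC and RVT had 3961 and 2871; 703 genes were listed only for S and RV, and 547 only for RVC and RVT. Comparisons of RVC or RVT with S therefore cross a difference in depth and in the genes listed that cannot be told apart from the drugs, while RV/S and RVT/RVC stay within a pair on these measures. The median mitochondrial share of UMIs per cell was 3.15% in S, 3.06% in RV and 3.58% in RVC but 5.77% in RVT, so that RVT stood apart from RVC in this respect. Between 36 and 105 cell barcodes were shared by any 2 libraries, at most 1.38% of the smaller library's cells. Of the 8 melanocyte markers, SOX10 was at 86.3 CPM in S, 39.9 in RV and 19.4 in RVT and had no UMI in RVC. Taking 3 UMIs as the limit of a count of 0, this allows up to 0.0910 CPM, and the exact interval reaches 0.112 CPM. S100B had 32.8 CPM in S, 6.97 in RV, 0.276 in RVT and no UMI in RVC. MITF was at 9.78 in S and 20.2 in RV, against 8.13 in RVC and 41.3 CPM in RVT, and S100A1 at 10.7 in S and 2.88 in RV, against 3.18 in RVC and 16.8 CPM in RVT, so that the markers did not share a direction. TYR had no UMI in any library and PMEL, MLANA and DCT were at or below 0.439 CPM. Markers of other cells (PTPRC, PECAM1, EPCAM, COL1A1 and HBB) summed to between 0.546 and 4.25 CPM, PTPRC and HBB having none.

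As a whole, the 34 genes summed to 6213 in S and 6414 in RV, against 9833 in RVC and 5825 CPM in RVT. The level in RV was thus 1.03 times that in S, the level in RVC 1.58 (1.58 to 1.59) times, and the level in RVT 0.937 (0.932 to 0.943) times, so that RVT stood at 0.592 (0.589 to 0.596) of RVC. Core and cap did not keep step, where the cap is the 17 members and leaves out its subunits ADRM1 and SEM1. ADRM1 was at 281 in S, 37.2 in RVC and 28.8 CPM in RVT, and SEM1 at 368, 1027 and 619.8 CPM. The core particle summed to 3813 in S and 3961 in RV, against 6353 in RVC and 3827 CPM in RVT, and the cap to 1966 in S and 2029 in RV, against 2311 in RVC and 1219 CPM in RVT. The ratio of core to cap UMIs was 1.94 in S and 1.95 in RV, against 2.75 in RVC and 3.14 in RVT. Without PSMA7, a choice made after its values were seen, it was 1.26 and 1.25, against 2.57 and 2.91. Abundant cap genes lower in RVC than in S were kept in both ratios. Among them were PSMD4 (333 CPM in S and 222 in RVC) and PSMD8 (283 and 80.6).

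**Figure D1:**
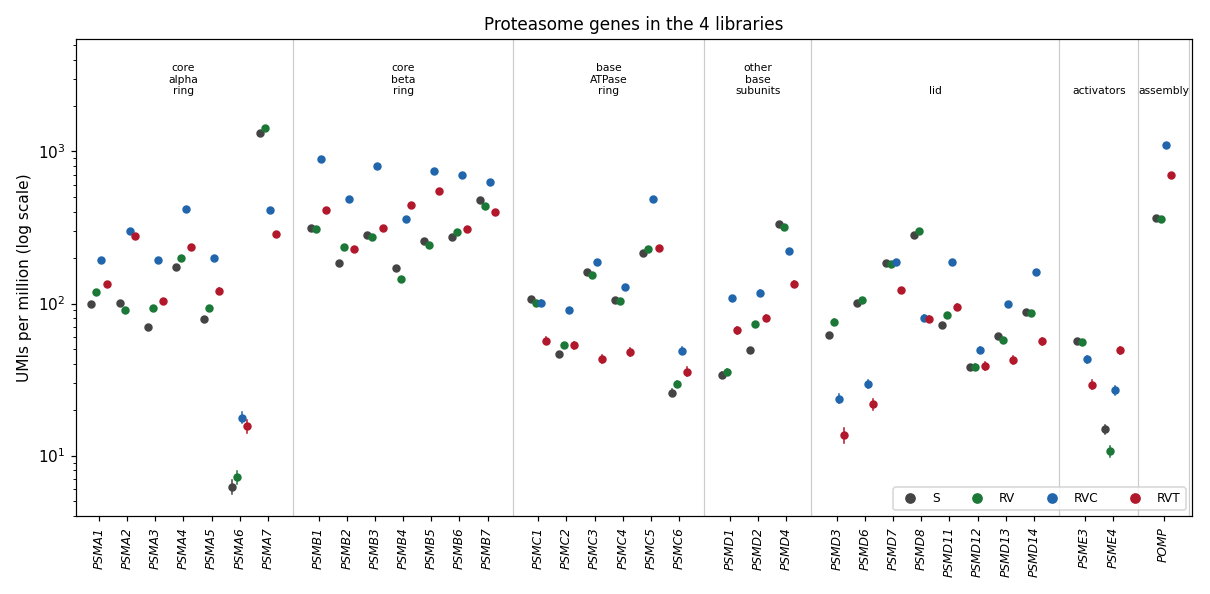
Level of each of the 34 genes in the 4 libraries, in CPM on a log scale, grouped by place in the complex. Points are library sums and vertical bars are exact 95% Poisson intervals; S (grey) and RV (green) lie close together for most genes, PSMA7 goes from 1329 CPM in S and 1419 in RV to 412 in RVC and 285 in RVT, and the beta ring is highest in RVC for 6 of 7 genes.

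The alpha ring subunits form the gate of the barrel. PSMA7 (ENSG00000101182, GRCh38 chr20:62136735-62143440, minus strand) was measured at 1329 in S and 1419 in RV, against 412 in RVC and 285 CPM in RVT. This gene alone held 71.5% of all alpha ring UMIs in S and 70.2% in RV, but 23.7% in RVC and 24.3% in RVT. A UMI marks 1 captured transcript end, so these shares were not divided by transcript length. The other 6 alpha genes ran the opposite way, with higher CPM in RVC and RVT than in S. Against S in RVT, PSMA1 and PSMA4 fell below equality when the trimmed-mean scaling factors of edgeR (TMM) were used, and PSMA1, PSMA3, PSMA4 and PSMA5 did so when ratios were centred within bins of GC content.

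PSMA2 (chr7:42916857-42932223, minus strand) was measured at 100.1 in S and 90.7 in RV, against 301 in RVC and 277 CPM in RVT, the largest gain of the alpha ring against S in both RVC and RVT. PSMA3 had 69.6 in S and 93.0 in RV, against 194 in RVC and 104 CPM in RVT. PSMA4 had 174 in S and 198 in RV, against 421 in RVC and 236 CPM in RVT. For PSMA3 and PSMA4, RVC stood highest and RVT lay between S and RVC. PSMA1 had 99.0 in S and 119 in RV, against 192 in RVC and 134 CPM in RVT. PSMA5 had 79.4 in S and 93.8 in RV, against 200.4 in RVC and 122 CPM in RVT. PSMA6 was low throughout, with 6.19 in S and 7.20 in RV, against 17.8 in RVC and 15.6 CPM in RVT. For all 3, the order in CPM from low to high was S, RV, RVT, RVC, although the ratio of RVT to RVC for PSMA6, 0.879 (95% interval 0.772 to 1.00), reached equality within counting error. PSMA1, PSMA2 and PSMA6 each share 814, 781 and 919 exonic bases, respectively, with another listed protein-coding gene on the same strand; those partners had 0 to 3 UMIs per library. How the counting split such reads was not tested, and the level of PSMA6 in particular is uncertain.

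With PSMA7 included, the summed alpha ring stood at 1857 in S and 2021 in RV, against 1737 in RVC and 1172 CPM in RVT, which was 0.936 of S in RVC. Without PSMA7, the ring summed to 528 in S and 602 in RV, against 1326 in RVC and 887 CPM in RVT, which was 2.51 times S in RVC and 1.68 times S in RVT. In the core particle, leaving the gene out changed RVC/S from 1.67 to 2.39 (1.44 and 2.06 with TMM factors). It changed RVT/S from 1.004 to 1.43 (0.702 and 0.997 with TMM factors). Left out of all members, the gene changed RVC/S from 1.58 to 1.93 and RVT/S from 0.937 to 1.13, so that in CPM the direction of RVT against S for the summed genes rested on 1 gene. With TMM factors RVT was below S with the gene (0.656) and without it (0.793), as it was when centred on the median gene (0.808 and 0.978).

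The beta ring holds the proteolytic subunits PSMB5 (chymotrypsin-like), PSMB6 (caspase-like) and PSMB7 (trypsin-like). PSMB5 (chr14:23016543-23035230, minus strand) was measured at 259.5 in S and 244 in RV, against 745 in RVC and 549.8 CPM in RVT. PSMB6 (chr17:4796144-4798503, plus strand) had 274 in S and 297 in RV, against 704 in RVC and 309 CPM in RVT. PSMB7 (chr9:124353466-124415444, minus strand) had 476 in S and 435 in RV, against 629 in RVC and 398 CPM in RVT. All 3 catalytic genes were highest in RVC, but their gains over S were unequal: 2.87-fold for PSMB5, 2.57-fold for PSMB6 and 1.32-fold for PSMB7. In RVT, PSMB5 was at 2.12 times S, PSMB6 at 1.13 and PSMB7 at 0.837.

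The structural beta subunits were PSMB1, PSMB2, PSMB3 and PSMB4. PSMB1 had 312 in S and 309 in RV, against 888 in RVC and 414 CPM in RVT. PSMB2 had 184 in S and 236 in RV, against 487 in RVC and 228 CPM in RVT. PSMB3 had 280.1 in S and 273 in RV, against 803 in RVC and 313 CPM in RVT. In these genes RVC was well above every other library and RVT stood nearer to S. PSMB4 departed from that order, with 171 in S and 146 in RV, against 360.4 in RVC and 443 CPM in RVT, and was the only core gene higher in RVT than in RVC, though not with TMM factors. Together the beta ring summed to 1956 in S and 1940.4 in RV, against 4616 in RVC and 2655 CPM in RVT, 2.36 times S in RVC and 1.36 times S in RVT in CPM, though below S in RVT with TMM factors. POMP (chr13:28659104-28678925, plus strand), the chaperone that brings the beta subunits into the growing core, had 363 in S and 357 in RV, against 1098 in RVC and 700.5 CPM in RVT; its RVC level was 3.03-fold (95% interval 2.98 to 3.08) that in S.

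Of the cap, the ATPase ring (PSMC1 to PSMC6) unfolds substrates. PSMC5 had 216 in S and 229.7 in RV, against 489 in RVC and 230.4 CPM in RVT. PSMC3 had 161 in S and 155 in RV, against 186 in RVC and 43.1 CPM in RVT. PSMC4 had 106 in S and 104 in RV, against 129 in RVC and 48.1 CPM in RVT. PSMC5 was the ATPase gene with the largest gain in RVC, whereas PSMC3 and PSMC4 were at 1.16 and 1.21 times S in RVC and were the lowest of the ring against S in RVT. PSMC1 had 107 in S and 101.3 in RV, against 101.5 in RVC and 57.0 CPM in RVT. PSMC2 had 46.5 in S and 53.3 in RV, against 90.3 in RVC and 53.1 CPM in RVT. PSMC6 had 25.9 in S and 29.6 in RV, against 48.9 in RVC and 35.7 CPM in RVT. The ring therefore divided in RVT, with PSMC2, PSMC5 and PSMC6 above S and PSMC1, PSMC3 and PSMC4 below it in CPM; with TMM factors all 6 were below S. PSMC1 shares 4671 exonic bases with NRDE2 on the opposite strand, which had 332 to 1753 UMIs per library, and the tables do not show how such reads were assigned; PSMC5, PSMD13 and PSME3 have antisense partners too (FTSJ3, SIRT3 and BECN1).

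PSMD1 and PSMD2 are the large scaffolds of the base and PSMD4 is one of its ubiquitin receptors. PSMD1 (chr2:231056864-231172827, plus strand) had 33.97 in S and 35.6 in RV, against 108 in RVC and 66.6 CPM in RVT. PSMD2 had 49.3 in S and 73.6 in RV, against 118 in RVC and 80.3 CPM in RVT. PSMD4 had 333 in S and 319 in RV, against 222 in RVC and 135 CPM in RVT. PSMD1 and PSMD2 were higher than S in RVC and RVT, and PSMD4 was lower in both.

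In the lid, PSMD14 is the deubiquitinating enzyme that removes the chain from the substrate and PSMD7 is its structural partner. PSMD14 had 87.9 in S and 86.1 in RV, against 162 in RVC and 56.6 CPM in RVT. PSMD7 had 185 in S and 181 in RV, against 186 in RVC and 122 CPM in RVT. PSMD14 was 1.84 times S in RVC and 0.644 of S in RVT, while PSMD7 was at 1.01 (95% interval 0.976 to 1.04) of S in RVC. The scaffold subunits of the lid split into those that gained and those that lost. PSMD11 had 72.3 in S and 83.6 in RV, against 187 in RVC and 95.4 CPM in RVT. PSMD13 had 61.1 in S and 57.5 in RV, against 99.6 in RVC and 42.4 CPM in RVT. PSMD12 had 38.0 in S and 38.5 in RV, against 49.4 in RVC and 38.8 CPM in RVT. In these 3 genes RVC was the highest library in CPM, although PSMD12 was below S in RVC within GC bins, as was PSMD7. PSMD8 had 283 in S and 300.2 in RV, against 80.6 in RVC and 78.7 CPM in RVT. PSMD6 had 100.1 in S and 106 in RV, against 29.6 in RVC and 21.8 CPM in RVT. PSMD3 (chr17:39980797-39997960, plus strand) had 61.7 in S and 76.1 in RV, against 23.7 in RVC and 13.6 CPM in RVT. These 3 lid genes were 2.60 to 3.51 times lower in RVC than in S, and PSMD3 and PSMD6 were lower again in RVT. With PSMA7 they were the only members below S by over 1.5-fold in RVC, PSMD4 being just inside the limit at 1.498 times lower.

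The activators bind the core in place of the cap. PSME3, a largely nuclear activator, had 56.3 in S and 55.9 in RV, against 43.1 in RVC and 29.3 CPM in RVT. PSME4 (chr2:53864067-53970840, minus strand), a nuclear activator linked to histone turnover, had 14.8 in S and 10.7 in RV, against 26.9 in RVC and 49.2 CPM in RVT. PSME3 was lowest in RVT and PSME4 highest there, at 3.31-fold (95% interval 3.04 to 3.62) the level in S and 1.83-fold (95% interval 1.68 to 2.00) that in RVC. PSME4 was thus the only member more than 1.5-fold higher in RVT than in RVC in CPM, a call lost with TMM factors and within GC bins, where no member passed.

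How evenly the subunits moved was described by the spread of their log2 ratios. Between RV and S, which asks what resistance to vemurafenib alone went with, the members' median log2 ratio was 0.04. Their SD was 0.20, against 0.44 over all genes with at least 10 CPM, whose log2 ratios ran from -10.7 to 7.09. The lower and upper quartiles were -0.050 and 0.195 for the members, against -0.163 and 0.209 for all genes. By quartiles, the members' spread was thus nearer to that of all genes than by SD. None of the 34 was 1.5-fold higher and none 1.5-fold lower, where 5.35% of all genes were that much higher and 4.06% that much lower. The 3 highest ratios were those of PSMD2 at 1.49 (95% interval 1.42 to 1.57), PSMA3 at 1.34 (95% interval 1.28 to 1.39) and PSMB2 at 1.28 (95% interval 1.25 to 1.32). The 3 lowest were those of PSME4 at 0.721 (95% interval 0.648 to 0.803), PSMB4 at 0.854 (95% interval 0.828 to 0.879) and PSMA2 at 0.906 (95% interval 0.872 to 0.942). Counting error alone would give the members an SD of 0.04, so the spread of 0.20 was larger than the counts' own error, but variation between cultures was not measured. The direction of the median in RV/S turned with scaling, from 0.04 to -0.0013 with TMM factors and to -0.021 with library sizes that leave out ribosomal and mitochondrial genes.

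Between RVC and S, which asks what resistance to vemurafenib with cobimetinib went with, the median log2 ratio was 0.96 and the SD 1.04 (1.56 over all genes). At 1.5-fold, 22 members were higher, where 36.7% of all genes were, and 4 were lower, where 31.2% of all genes were. A mean of at least 50 CPM was reached by 28 of the 34 members and by 1875 genes in all; of the latter, 35.3% were higher and 36.6% lower, with a median log2 ratio of 0.03. In the core, 12 of 14 genes were 1.5-fold higher and 1 (PSMA7) lower; in the cap, 8 of 17 were higher and 3 lower. The highest were PSMD1 at 3.18 (95% interval 3.01 to 3.36), POMP at 3.03 (95% interval 2.98 to 3.08) and PSMA2 at 3.003 (95% interval 2.91 to 3.10). The lowest were PSMD8 at 0.285 (95% interval 0.273 to 0.297), PSMD6 at 0.296 (95% interval 0.276 to 0.317) and PSMA7 at 0.310 (95% interval 0.304 to 0.315). By place in the complex, the median log2 ratio was 1.34 for the alpha ring, 1.40 for the beta ring, 0.60 for the ATPases and 0.20 for the lid. Across all genes the median log2 ratio was 0.16, so values relative to it are lower by that amount, and the members' median was then 0.80. The genes of the G2/M phase of the cell cycle, before and during division, summed to 1963 CPM in S and 4707 in RVC, and the part of this difference in the result was not tested.

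Between RVT and S, which asks the same for vemurafenib with trametinib, the members were split. Their median log2 ratio was 0.18 with an SD of 1.12 (all genes 1.67). At 1.5-fold, 9 members were higher, where 39.6% of all genes were, and 11 were lower, where 31.5% were. Of the genes with at least 50 CPM, 28.0% were higher and 41.7% lower, so that the members' shares were near or below these. The split was 4 higher to 13 lower with TMM factors and 6 to 12 when ratios were centred within bins of GC content. The highest were PSME4 at 3.31 (95% interval 3.04 to 3.62), PSMA2 at 2.77 (95% interval 2.68 to 2.87) and PSMB4 at 2.59 (95% interval 2.52 to 2.66), and the lowest PSMA7 at 0.215 (95% interval 0.209 to 0.220), PSMD6 at 0.218 (95% interval 0.199 to 0.237) and PSMD3 at 0.220 (95% interval 0.196 to 0.246). The core had 5 of 14 genes higher and 1 lower, while the cap had 2 of 17 higher and 9 lower; in the lid, none of 8 was 1.5-fold higher and 5 were lower. The median log2 ratio of all genes was 0.21 here (-0.30 with TMM factors, and -0.23 in CPM over genes with at least 50 CPM). The direction of the members' median flipped with the scaling, to -0.031 centred on the median gene, -0.33 with TMM factors and -0.14 within GC bins, and 11 of the 34 members changed sides with TMM factors. The ratio of core to cap is taken within a library and does not depend on library scaling factors. It does depend on the genes taken. In S it was 1.94 with PSMA7 and 1.26 without it, and the cap leaves out ADRM1 and SEM1. It was not computed within GC bins.

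Between RVT and RVC, which are closer in depth than either is to S and list the same genes, the members differed mostly in 1 direction. All but PSME4 and PSMB4 were lower in RVT (32 of 34). So were 2803 of 6495 genes with at least 10 CPM and 1077 of 1873 with at least 50 CPM. The members' median log2 ratio was -0.71 and their SD 0.54, against a median of 0.15 and an SD of 1.19 over all genes. At 1.5-fold, 21 members were lower, where 21.2% of all genes were, and 1 was higher, where 30.3% were. Of the genes with at least 50 CPM, 31.7% were lower and 18.7% higher, with a median log2 ratio of -0.16, so that the commoner direction among all genes turned with the minimum. The lowest ratios were those of PSMC3 at 0.231 (95% interval 0.217 to 0.247), PSMD14 at 0.349 (95% interval 0.329 to 0.370) and PSMC4 at 0.373 (95% interval 0.350 to 0.398). The highest were PSME4 at 1.83 (95% interval 1.68 to 2.00), PSMB4 at 1.23 (95% interval 1.20 to 1.26) and PSMD8 at 0.976 (95% interval 0.921 to 1.03). With TMM factors PSMB4 fell to the other side of equality (-0.0053 on the log2 scale), and PSMD8, near equality, did so in the other direction with library sizes that leave out ribosomal and mitochondrial genes. Ring medians ran from -0.53 for the alpha ring to -1.10 for the beta ring, and the summed cap members stood at 0.527 of RVC beside 0.602 for the core. The G2/M list was at 0.310 of its RVC level in RVT, and mitochondrial genes were at 36539 CPM in RVC and 58876 CPM in RVT, 1.61 times higher; the part of either in the result was not tested. With library sizes that leave out ribosomal and mitochondrial genes, the members' median was -0.60.

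**Figure D2:**
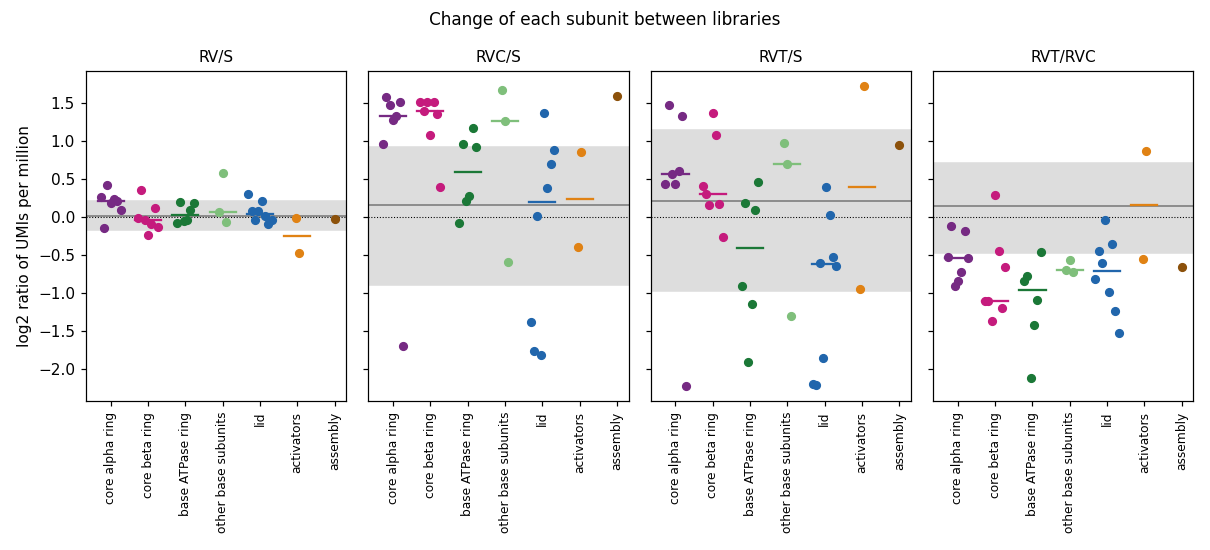
Log2 ratio of the CPM of each member in the 4 comparisons, by place in the complex. Each point is a gene and coloured bars are medians of a class. The grey line is the median and the grey band the middle 50% of all genes with at least 10 CPM. The members sit in a narrow band in RV/S (SD 0.20) and spread widely in RVC/S and RVT/S (SD 1.04 and 1.12). In RVT/RVC 32 of 34 lie below 0, as do 2803 of 6495 genes with at least 10 CPM and 1077 of 1873 with at least 50 CPM.

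RVC/S and RVT/S share the S library, and their values are given side by side. In that order, PSMA7 was at 0.310 and 0.215 of S, PSMD6 at 0.296 and 0.218, and PSMA2 at 3.003 and 2.77 times S. Other members went opposite ways in CPM. PSMB7, PSMC3, PSMC4, PSMD7, PSMD13 and PSMD14 were above S in RVC and below S in RVT, PSMD7 being near S in RVC. RV/S and RVT/RVC share no library, and over the 34 members their log2 ratios had a Spearman correlation of -0.11 and a Pearson correlation of -0.25, as a description over genes that are not independent. GC content near the 3′ end (the final 500 transcript bases, from which the reads come) ranged from 25.6 to 59.0% over the members (median 45.6%, all genes 41.4%). Its Spearman correlation with the log2 ratio over all genes was 0.01 in RV/S, -0.35 in RVC/S, -0.41 in RVT/S and -0.17 in RVT/RVC, and over the members -0.21, -0.28, -0.46 and -0.36. GC content thus moved with the ratios over all genes in RVC/S, RVT/S and, less closely, RVT/RVC, and its part in single genes was not tested beyond the values centred within GC bins.

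Per cell, the counts were compared at 1500 UMIs per cell, which left out 397 RVC and 845 RVT cells with fewer. The mean number of proteasome UMIs was 9.33 in S and 9.61 in RV, against 15.1 in RVC and 8.70 per cell in RVT. At full depth, the median cell had 55 proteasome UMIs in S and 75 in RV, but 36 in RVC and 15 in RVT, from 21, 23, 17 and 10 of the 34 genes. Cells without any proteasome UMI were rare at equal depth, with 3 in S, 5 in RV and 8 in RVT, and 0 of 7226 in RVC, a count that allows up to 0.0415% of cells when 3 cells are taken as the limit. The variance of the count over cells, divided by its mean, was 1.46 in S and 1.59 in RV, and 2.59 in RVC and 2.60 in RVT. In RVC the variance of the sum, 39.0, exceeded the sum of the genes' own variances, 17.0, and in RVT 22.6 exceeded 9.80; in S the values were 13.6 and 9.99. The genes thus varied together over cells more in RVC and RVT than in S and RV, as shown also by the Pearson correlation of core and cap UMIs over cells, 0.12 in S and 0.17 in RV but 0.29 in RVC and 0.28 in RVT, a description within each library. These values were not computed for other gene sets, so whether the difference was particular to the proteasome genes was not tested. Cells with no cap UMI made up 6.99% of S, 6.75% of RV, 4.35% of RVC and 18.3% of RVT.

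**Figure D3:**
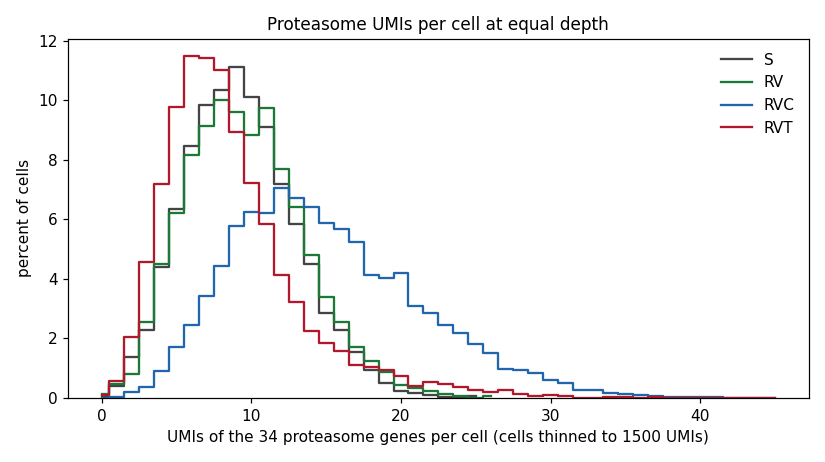
Distribution over cells of the UMIs of the 34 proteasome genes, in percent of cells, after thinning every cell to 1500 UMIs. S, RV and RVT have means of 9.33, 9.61 and 8.70 UMIs and overlap, and RVC is shifted to a mean of 15.1, with 8.29% of its cells at 25 UMIs or more, beside 1.22% in RVT, 0.0632% in S and 0.0479% in RV; the highest single cell, at 61 UMIs, was in RVT.

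Within each library, cells were put into quartiles. From the lowest to the highest quartile, the median G2/M share was 0.039 to 0.385% in S and 0.049 to 0.495% in RV. It was 0.151 to 0.831% in RVC but 0 to 0.175% in RVT, so that the RVT classes rest on few G2/M UMIs per cell. In quartiles by the share of G2/M genes, 28 of 34 members were higher in the highest than in the lowest quartile in S and 33 in RV, and 32 in RVC and 33 in RVT. Of all genes with at least 10 CPM, the G2/M genes left out, 62.9% in S and 67.3% in RV, and 65.9% in RVC and 69.8% in RVT were higher there. The median ratio was 1.12 in S and 1.54 in RV, and 1.16 in RVC and 1.27 in RVT, and the summed level in RV went from 5063 to 7219 CPM. In RV, PSMD14 had 53.1 CPM in the lowest and 109 in the highest quartile, and PSMB4 was the only gene lower in the highest. PSME4 did not follow the G2/M share in RVT, with 49.7 and 48.2 CPM. In every library, the summed proteasome level was thus higher in the highest than in the lowest quartile of G2/M share. The lowest quartile of RVC had 9077 CPM, and the highest quartiles of the other libraries had at most 7219 CPM. The quartiles were cut within each library and not matched in G2/M share or depth. The part of G2/M share in the RVC level was not tested.

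In quartiles by mitochondrial share, taking UMIs outside mitochondrial genes as the total, 31 of 34 were lower in the highest quartile than in the lowest in S and 32 in RV, and 27 in RVC and 28 in RVT. Of all genes with at least 10 CPM outside mitochondrial genes, 45.4% in S and 55.3% in RV, and 22.2% in RVC and 39.5% in RVT were lower there. The summed level of the members fell quartile by quartile from 12109 to 8749 CPM in RVC. In RVT it was 7397 CPM in the lowest quartile and 5832, 5625 and 5746 in the others, so that nearly all of the difference lay between the lowest quartile and the rest. The exceptions in RVC included PSMD3, PSME3 and PSME4. By depth, the lowest quartile of RVC had 11221 CPM and the highest 9540 CPM, and RVT had 6622 and 5774; 20 of 34 members were higher in the deepest quartile in S and 24 in RV, but 10 in RVC and 5 in RVT, where 52.6% and 47.3%, and 38.8% and 35.5% of all genes were. The level in RVC exceeded that of S and RV at every quartile of the 3 measures, each cut within its own library. The quartiles were not matched between libraries. Median depth was 6885 UMIs in the deepest quartile of RVC, beside 5988 in the shallowest of S and 7487 in that of RV. Cells are not replicates, and these values describe single libraries.

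**Figure D4:**
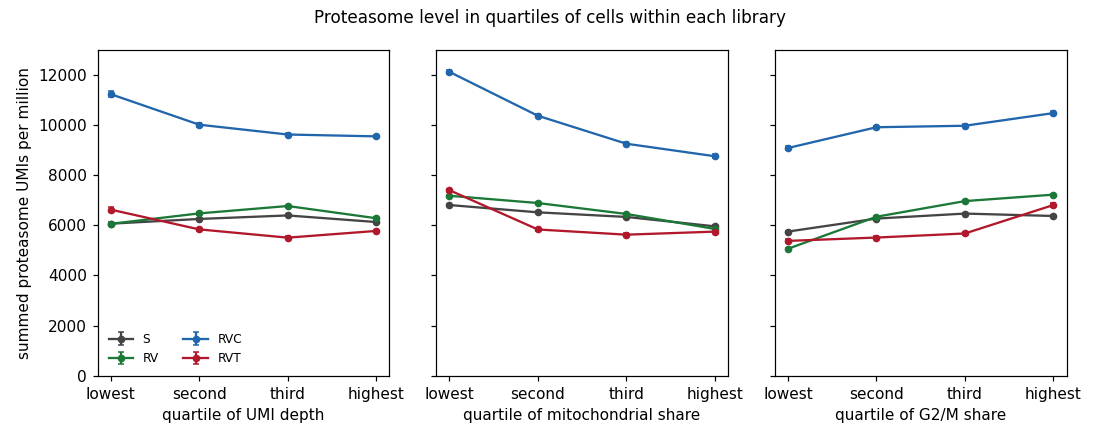
Summed CPM of the 34 proteasome genes in quartiles of cells of each library by UMI depth, mitochondrial share and G2/M share. Bars are exact 95% Poisson intervals, which are mostly smaller than the points; RVC (blue) lies above the other libraries in all quartiles, falls with mitochondrial share from 12109 to 8749 and rises with G2/M share from 9077 to 10467.

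Genes around the constitutive proteasome, given as a list chosen with the members, did not move as one. Their counts at 1.5-fold are to be read beside the shares of all genes with at least 10 CPM, 36.7% higher and 31.2% lower in RVC/S, and 39.6% and 31.5% in RVT/S (28.0% and 41.7% of those with at least 50 CPM); PSMB10 and DDI2 lay under that minimum. The immunoproteasome genes, interferon-inducible alternatives to the catalytic subunits and activator, summed to 452 in S and 511 in RV, against 681 in RVC and 517 CPM in RVT. PSMB8 had 45.6 in S and 61.2 in RV, against 107 in RVC and 105 CPM in RVT. PSMB9 had 39.6 in S and 50.8 in RV, against 48.6 in RVC and 16.3 CPM in RVT. PSMB10 had 12.7 in S and 18.7 in RV, against 2.09 in RVC and 2.24 CPM in RVT. In RVC/S, 2 of 5 were 1.5-fold higher and 1 lower, near the shares of all genes. In RVT/S, 1 was higher and 2 lower, with a median log2 ratio of -0.34. The testis form PSMA8 and the thymus form PSMB11 had no UMI in any library. Among 15 other cap and assembly genes, 4 were 1.5-fold higher and 8 lower in RVC/S, and 6 higher and 8 lower in RVT/S. ADRM1, another ubiquitin receptor of the base, had 281 in S and 323 in RV, against 37.2 in RVC and 28.8 CPM in RVT. SEM1, a small lid subunit, had 368 in S and 419 in RV, against 1027 in RVC and 619.8 CPM in RVT. The chaperones of alpha ring assembly PSMG1 and PSMG4 had 54.3 and 76.3 CPM in S and 10.9 and 9.25 in RVC. ADRM1, PSMG1 and PSMG4 were thus lower in RVC and RVT than in S, as were PSMA7, PSMD3, PSMD6 and PSMD8.

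Upstream of the proteasome, the 4 ubiquitin genes summed to 9712 in S and 8639 in RV, against 12295 in RVC and 14184 CPM in RVT, of which UBB had 483 in S and 488 in RV, against 1605 in RVC and 1329 CPM in RVT. The counts that follow are set beside the same shares of all genes (36.7% higher and 31.2% lower in RVC/S, 39.6% and 31.5% in RVT/S). Of 11 genes of ubiquitin activation, shuttling and the p97 unfoldase, 7 were 1.5-fold higher and 2 lower in RVC/S, and 7 higher and 1 lower in RVT/S. VCP, the p97 gene, had 32.5 in S and 39.3 in RV, against 80.0 in RVC and 90.7 CPM in RVT. The transcription factor NFE2L1 had 52.0 in S and 27.1 in RV, against 56.2 in RVC and 125 CPM in RVT, and its relative NFE2L2, the main factor of the oxidative stress response, had 107 in S and 52.0 in RV, against 68.7 in RVC and 78.8 CPM in RVT. NFE2L1 was lowest in RV and highest in RVT; its part in the members' levels was not tested. STAT3, a transcription factor activated by cytokines, had 24.4 in S and 19.4 in RV, against 29.7 in RVC and 110.2 CPM in RVT. Other large assemblies gave a scale: the TRiC chaperonin genes summed to 1405 in S and 1572 in RV, against 1414 in RVC and 870.2 CPM in RVT, and the COP9 signalosome, which resembles the lid in architecture, to 657 in S and 676 in RV, against 535 in RVC and 310.1 CPM in RVT. Of 8 TRiC genes, 2 were 1.5-fold higher and 3 lower in RVC/S, and 0 higher and 5 lower in RVT/S. COP9 genes, 1 of 9 higher and 3 lower in RVC/S, were 0 and 6 in RVT/S, and both sums were lower in RVT than in S, as the cap was. Against RVC, 8 of 8 TRiC genes (median log2 ratio -0.50) and 7 of 9 COP9 genes (median -0.69) were lower in RVT, beside 32 of 34 members (median -0.71). Of all genes, 2803 of 6495 with at least 10 CPM and 1077 of 1873 with at least 50 CPM were lower there.

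The promoters were searched for 4 letter patterns, on both strands of the 250 bases before each RefSeq start site (GRCh38.p14; 29 of the 34 genes were in the table, without PSMA7, PSMB1, PSMB6, PSMB7 and PSMD4, with 35 windows, among 35116 windows of all genes). The pattern TGACNNNGC, known as an antioxidant response element through which NFE2L1 and NFE2L2 act, lay in 6 of 35 member windows (17.1%) and in 10.9% of all windows. CCAAT lay in 42.9% of member and 32.0% of all windows, CCGGAAG in 22.9% and 8.52%, and the pattern of the heat shock element in 0 and 0.441%. The 6 genes with TGACNNNGC were PSMA4, PSMB3, PSMC5, PSMD3, PSMD12 and PSME4. Stretches of 64 bases around the match are shown for the 3 whose stretch holds no annotated exon, one from the beta ring and 2 from the lid, with the match in capitals, each on the gene's own strand and read 5′ to 3′ (PSMB3 at chr17:38752597-38752660, plus strand, PSMD3 at chr17:39980730-39980793, plus strand, and PSMD12 at chr17:67366719-67366782, minus strand).

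PSMB3: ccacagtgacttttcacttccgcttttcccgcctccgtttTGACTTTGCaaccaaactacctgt
PSMD3: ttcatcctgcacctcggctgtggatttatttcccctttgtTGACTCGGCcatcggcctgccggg
PSMD12: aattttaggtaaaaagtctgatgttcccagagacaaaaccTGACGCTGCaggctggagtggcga

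The matches lie 104, 37 and 165 bases before the start site. The 3 genes, which share the pattern but not its free letters, differed in their ratios: against S, RVC was at 2.87 for PSMB3, 0.384 for PSMD3 and 1.30 for PSMD12, and RVT at 1.12, 0.220 and 1.02. Over the 6 genes with the pattern, the median log2 ratio was 0.05 in RV/S, 1.02 in RVC/S, 0.13 in RVT/S and -0.82 in RVT/RVC. Over the 23 without it, the medians were 0.07, 0.96, 0.40 and -0.65. A match is a description of letters and not of a bound site.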

How the data were processed

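A375 cultures S, RV, RVC and RVT were each captured as 1 library with the 10x Genomics v2 kit, 10000 cells being loaded per channel. The count values deposited by the authors are whole-number UMI counts per gene and barcode, not normalized, and the submitters' processing notes name Cell Ranger, GRCh38 and bcl2fastq 2.20.0.422. The gene annotation and the strand setting of the counting are not given in the sources used here. The tables list 6695, 4328, 9266 and 10427 barcodes for S, RV, RVC and RVT.

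Barcodes with at least 500 genes and at most 20% mitochondrial UMIs were kept, and those with the highest scrublet scores (scanpy 1.11.5) were left out at 0.8% per 1000 barcodes; scrublet's own threshold marked 0 to 5 barcodes per library and was not used. UMIs were summed per gene and library and given as CPM. Exact intervals, classes of cells and thinning (random seed 1) were made with scipy 1.17.1, numpy 2.4.6 and pandas 2.3.3 under python 3.11.15, TMM factors with edgeR 4.0.16 in R 4.3.3, figures with matplotlib 3.10.9. A gene was counted as higher or lower at 1.5-fold. Coordinates and transcript ends came from GENCODE on GRCh38, promoter sequences from RefSeq (GRCh38.p14). Ratio and interval calculations were tested on simulated sums. Named genes were the members, with the 3 highest and 3 lowest ratios per comparison, and the companion lists. The members, lists and companion genes were chosen with earlier results of these data known. Free RNA in droplets was not corrected. Depth ran from 25407041 to 58611860 UMIs per library, and a count of 0 was taken to allow 3 UMIs, or 0.0512 (S), 0.0573 (RV), 0.0910 (RVC) and 0.118 (RVT) CPM. These limits are lower than the upper ends of the exact intervals for a count of 0. Alternatives were other cell filters, other scalings, equal weight per cell, GC bins, thinning, other minima and folds and a split of cells at the median.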

Additional observations from a re-analysis of the deposited data

How the results depend on the processing

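No paired analysis was possible because each condition has 1 library. Scaling moved the medians most. With TMM factors the members' median log2 ratio was -0.0013 in RV/S and -0.33 in RVT/S (both reversed), 0.74 in RVC/S and -1.01 in RVT/RVC, with 4 members 1.5-fold higher in RVT/S and 0 in RVT/RVC. Without ribosomal and mitochondrial genes it was -0.021 in RV/S (reversed), 0.76 in RVC/S, 0.10 in RVT/S and -0.60 in RVT/RVC. Centred on the median gene it was 0.021, 0.80, -0.031 (reversed) and -0.86 in RV/S, RVC/S, RVT/S and RVT/RVC. Within GC bins it was 0.018, 0.78, -0.14 (reversed) and -0.92, with SDs of 1.02, 0.98 and 0.50 in RVC/S, RVT/S and RVT/RVC, 0 members higher in RVT/RVC, and PSMA5 in RVT/S at -0.059 (reversed). Without PSMA7, chosen after seeing the data, the summed alpha ring in RVT/S was at 0.75 (log2), the opposite direction.

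At 1000 genes per cell the medians were 0.93, 0.23 and -0.65 and the SDs 1.02, 1.11 and 0.53 in RVC/S, RVT/S and RVT/RVC. At 10% mitochondrial UMIs the medians were 0.95 in RVC/S and 0.17 in RVT/S. All barcodes gave 0.054 and doublets left in gave 0.055 in RV/S. Equal weight per cell gave 1 member higher in RV/S, and a median of 1.01 with an SD of 1.05 in RVC/S. Thinned cells gave 0.034 with an SD of 0.23 and 1 member lower in RV/S, 1.02 with an SD of 1.06 in RVC/S, and -0.72 in RVT/RVC. The causes were not tested. The other summary values, 119 in all, stayed within the limit set for them. For medians and SDs this was the counting error of the summed members' ratio, and for counts of members a 1.5-fold band. Some could not move, since scaling a whole library shifts all log2 ratios alike and leaves their SD unchanged. No alternative cell filter turned a member past 1.5-fold; PSMA5 was the only member so turned by any alternative. Counts were lowest for PSMA6 (363 UMIs in S) and PSMD3 (345 in RVT), and variation between cultures cannot be judged from 1 library each.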
